A study of Mus musculus with 12 samples.

Results

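The transcripts of 8 chemokines, Cxcl1, Cxcl2, Cxcl5, Cxcl10, Cxcl12, Cxcl16, Ccl2 and Cx3cl1, were followed across sorted liver cells. They were chosen by symbol as chemokines that liver endothelial, mesenchymal and biliary cells are known to make, and all 8 of them were found among the 54227 gene symbols of the table. All 8 also passed the filter on low values, a threshold of 10 on the average normalised count, which kept 16128 genes for testing.

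Cells came from digested livers of C57Bl/6 mice carrying Sox9EGFP, a transgene whose fluorescent protein marks cells with activity of Sox9, a transcription factor of the biliary lineage. All mice, those that gave the EGFP-negative cells included, carried the transgene and had been fasted for 16 h. Sorting by fluorescence gave EGFP-negative cells (neg) and 3 EGFP-positive gates of rising brightness (sub, low and high), with 3 libraries of total RNA per population and 12000 cells per sort. The sex and age of the mice, and how the gates were set, were not given in the sources used here. Nothing in the labels says that the 3 libraries of a population came from separate animals, so p-values measure the spread between these libraries, which may be technical. Libraries with the same replicate number share a suffix in their descriptions (MsA, 881 or 883), which the labels do not explain, and whether it marks an animal or a day is not stated; the replicates were not treated as pairs. The gates are cells of a given brightness and not purified cell types, and the transgene marks any cell in which it is active.

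Chemokines are small secreted or membrane-tethered proteins that direct the migration of leukocytes by engaging G protein-coupled receptors. CXC chemokines that carry the ELR motif, here Cxcl1, Cxcl2 and Cxcl5, act on Cxcr2 and draw neutrophils. Cxcl10 is induced by interferon and acts on Cxcr3 of T and NK cells, Cxcl12 is a constitutive stromal ligand of Cxcr4 and Ackr3, and Ccl2 draws monocytes through Ccr2. Cxcl16 and Cx3cl1 are made as membrane proteins, with Cxcr6 and Cx3cr1 as their receptors, and are released by sheddases of the ADAM family. In liver, sinusoidal endothelial cells, stellate cells and bile duct cells are recognised sources of such ligands.

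Upstream sequences are shown for 4 members whose levels carry the differences described below, to set the promoters of 2 neutrophil ligands beside those of the interferon-induced and the constitutive ligand. They are RefSeq sequences of build GRCm38.p6, from 250 to 31 bases before the annotated start and on the strand of the gene, and 5 of the 8 members were matched in that table. Capitals mark matches, on either strand, to the kappaB consensus (in Cxcl1 and Cxcl2, and the middle capital runs of Cxcl10), to the core of the interferon-stimulated response element, GAAA, any 2 bases, GAAA (the first capital run of Cxcl10) and to the AP-1 motif TGANTCA (the last capital run of Cxcl10). The windows lie at chr5:90890995-90891214 (plus strand) for Cxcl1, chr5:90903649-90903868 (plus strand) for Cxcl2, chr5:92348920-92349139 (minus strand) for Cxcl10 and chr6:117168285-117168504 (plus strand) for Cxcl12.
Cxcl1: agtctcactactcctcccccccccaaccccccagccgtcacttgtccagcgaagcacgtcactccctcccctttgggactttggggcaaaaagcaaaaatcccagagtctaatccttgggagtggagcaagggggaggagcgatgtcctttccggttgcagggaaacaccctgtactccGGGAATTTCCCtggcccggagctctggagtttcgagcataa
Cxcl2: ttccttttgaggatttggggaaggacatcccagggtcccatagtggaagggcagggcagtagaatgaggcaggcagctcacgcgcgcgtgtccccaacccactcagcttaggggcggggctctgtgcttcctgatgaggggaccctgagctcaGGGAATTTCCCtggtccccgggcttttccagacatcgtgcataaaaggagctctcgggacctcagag
Cxcl10: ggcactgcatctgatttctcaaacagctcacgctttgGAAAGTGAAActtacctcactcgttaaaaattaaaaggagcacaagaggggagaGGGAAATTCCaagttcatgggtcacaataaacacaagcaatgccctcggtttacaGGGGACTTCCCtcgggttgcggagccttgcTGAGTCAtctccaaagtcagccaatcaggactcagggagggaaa
Cxcl12: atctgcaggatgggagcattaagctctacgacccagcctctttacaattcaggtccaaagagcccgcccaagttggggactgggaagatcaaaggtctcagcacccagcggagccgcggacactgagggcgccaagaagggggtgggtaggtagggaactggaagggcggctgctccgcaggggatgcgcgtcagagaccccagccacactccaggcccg

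Cxcl1 and Cxcl2 carried the identical kappaB run, ending 61 and 87 bases before the start. In Cxcl10 the interferon-response core began 213 bases before the start, the kappaB matches began at 159 and 104 bases, and the AP-1 match began at 74 bases. Cxcl12 held none of these letters in this window, nor did Cx3cl1, whose promoter is not shown. Among all 32851 promoter windows of the same length, 6.34% held a kappaB match, 2.63% the interferon-response core and 6.12% the AP-1 motif. A match is a description of the letters and not a site shown to be in use.

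By GENCODE annotation of build GRCm38, Cxcl5 (chr5:90759360-90761624), Cxcl1 (chr5:90891241-90893115) and Cxcl2 (chr5:90903871-90905938) are neighbours on the plus strand of chromosome 5, and Cxcl10 (chr5:92346638-92348889, minus strand) lies on the same chromosome. Cxcl12 is on chromosome 6 (chr6:117168535-117181367), Cxcl16 and Ccl2 are on chromosome 11 (chr11:70453983-70459984, minus strand, and chr11:82035571-82037453), and Cx3cl1 is on chromosome 8 (chr8:94772009-94782427). All 8 are protein-coding genes. Cxcl10 overlaps Art3, Cxcl16 overlaps Zmynd15 and Ccl2 overlaps Gm17268 (at 0 in every library), each on the opposite strand. Whether the authors' counting used strand is not given in the sources used here, so the values of such a pair may share reads.

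The libraries held 8775387 to 15535588 recovered reads and 9039 to 12687 genes above 0. As a check of the sort, Sox9 was at 0.691 or less in the neg libraries and at 3707 to 17140.4 normalised counts in the EGFP-positive ones, and it passed the test against neg in each of the 3 positive gates (adjusted p = 7.92e-09 in sub, 8.80e-10 in low and 7.32e-10 in high, limma). Summed over 10 genes each, endothelial markers ranged between 139104 and 193611 in the neg libraries and between 34600 and 50494 in sub, but reached at most 2704 in low (lowest 997) and 1519.5 in high (lowest 631). Stellate and mesenchymal markers ranged between 19108 and 33162 for neg and between 24945 and 35206 for sub, against 628 to 2514 for low and 487 to 1935 for high. Biliary markers were at 21.3 to 412.5 in neg libraries, with 19770 to 36031 for sub, 66815 to 91812 for low and 62648 to 68507 for high. Hepatocyte markers summed to 395 to 936 for neg, against 5019 to 8109 for sub, 14730 to 22209 for low and 18248 to 22570.0 for high. Of the 10, 3 rose in sub, 4 in low and 5 in high against neg, where limma called 1.19%, 4.69% and 4.69% of all genes. In high that sum came mostly from Alb (11927 ± 1576) and Ahsg (5268 ± 349.6), with Apob at 1695 ± 128.7, Ttr at 1289 ± 504.6 and Hnf4a at 791.8 ± 537, while Serpina1a, Cyp2e1 and Cps1 were at 0 there. The cells that gave these reads were not identified. Of the leukocyte lists, 6 of 8 neutrophil and 7 of 10 lymphocyte genes were at 0 in every library, Cd3e, Ly6g and S100a9 among them. Others stood out in single libraries: in neg 2, Ms4a1 and Cd79a of B cells were at 743.6 and 364.4 and Csf3r of neutrophils at 399.9, and the pan-leukocyte gene Ptprc was at 326.4 in high 2. The highest lymphocyte sum was 1108 for neg, 0 for sub, 48.2 for low and 430.5 for high. The resident macrophage genes Clec4f, Adgre1, Vsig4 and Marco were each at 0 in at least 9 of the 12 libraries. In the same list Cd68 was at 532.7 in neg 1, 490 and 542.6 in sub 2 and sub 3 and 238.8 in high 1, C1qb was at 431.1 in neg 1 and 159.9 in sub 1, and Csf1r made up most of that list's sum in low and high while it was at 0 in neg.

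The 8 chemokines showed 2 patterns. Cxcl10 and Cxcl12 were high in all neg and sub libraries and low or at 0 in the low and high libraries. Cxcl1 and Cxcl16 were present in all 12 libraries. The remaining 4 were each absent from several libraries. Of 96 values (8 genes in 12 libraries), 28 were at the floor of 3 reads or fewer, 6 of 24 each for neg and sub, 5 for low and 11 for high. Of 48 comparisons (8 genes in 6 pairs of populations), 1 passed the test, that of Cxcl10 in high against neg. Per pair of populations, limma called 0% to 4.69% of all genes, with 4.69% in high against neg. In 33 of the 48, leaving out 1 library moved the ratio of means, or its bound against the floor, by over 1.5 times. Such moves were not counted over all genes.

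**Figure D1:**
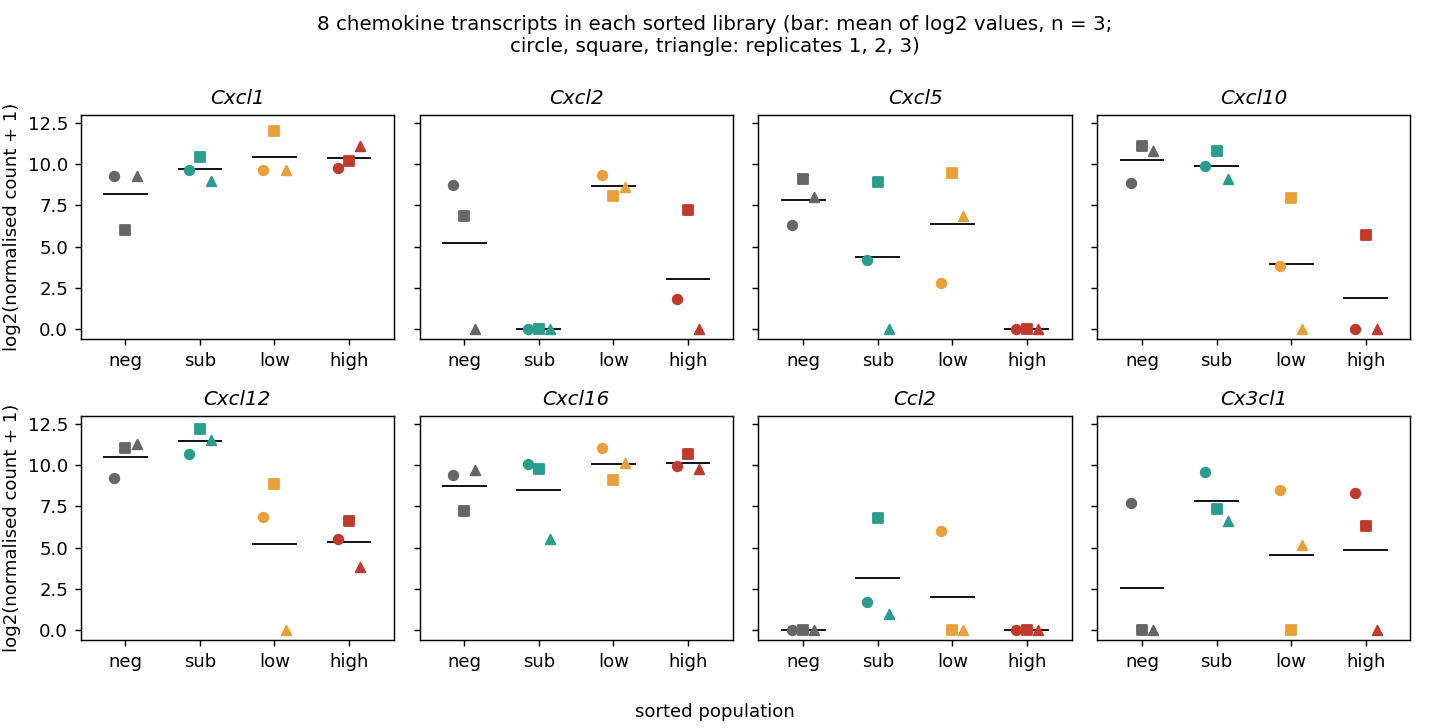
Level of each chemokine in every library, as log2(normalised count + 1), by sorted population; each point is 1 library and each bar the mean of the 3 log2 values. Cxcl10 and Cxcl12 sit high in neg and sub and low in low and high, Cxcl1 and Cxcl16 are above the floor in all 12 libraries, and the other 4 genes have points at 0.

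Cxcl10, the interferon-induced ligand of Cxcr3, had normalised counts (read counts divided by 1 factor per library) of 469.1, 2194 and 1766.5 in the neg libraries, in the order of replicates 1 to 3. Counts were 935.2, 1762 and 539.6 in sub. They were 13.4, 242.1 and 0 in low, and 0, 51.5 and 0 in high. Every neg and sub library lay above every low and high library, whereas neg overlapped with sub, and low with high. The neg mean was 1476.5 ± 898.2 (SD, n = 3) and the sub mean 1079 ± 623.7, while low had 85.2 ± 136.1 and high 17.2 ± 29.8. The high mean was 85.9-fold lower than that of neg, and Cxcl10 fell by 8.35 ± 2.31 (SE) on the log2(normalised count + 1) scale, which passed the test (adjusted p = 0.0431, limma, Benjamini-Hochberg over all 16128 genes). All 3 high libraries lay below all 3 neg libraries. The call was held in 8 of 22 alternative settings, with adjusted p from 0.0084 (DESeq2) to 0.141 (without high 1), and edgeR on the recovered reads gave 0.119. It was lost on leaving out neg 1 (0.073), neg 2 (0.136), neg 3 (0.129), sub 1 (0.0594), sub 2 (0.0581), sub 3 (0.0562), low 1 (0.0517), high 1 (0.141) or high 3 (0.139).

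The other Cxcl10 differences did not pass with limma. Low against neg, low against sub and high against sub were separated without overlap. The mean in low was 17.3-fold below neg (log2 difference −6.33 ± 2.31, adjusted p = 0.151, limma) and 12.7-fold below sub (−5.99 ± 2.31, adjusted p = 0.339). The mean in high was 62.8-fold below sub (−8.01 ± 2.31, adjusted p = 0.123), a difference that DESeq2 called (adjusted p = 0.0239) and edgeR did not. The mean in sub was 1.37-fold below neg (log2 difference −0.34 ± 2.31, adjusted p = 1), well inside the spread of either. Over the 4 populations the moderated F test gave an adjusted p of 0.0605. It was called in 4 of 21 alternative settings, the replicate block among them. In each of the 4 populations the second library held the highest Cxcl10 value. The ratios of means in low rest on low 2, the highest of its population: without it the low mean was 221.1-fold below neg and 161.5-fold below sub, and without low 3 the folds were 11.6 and 8.45. High rests on high 2, its only library above 0: without it the high mean was at least 585.2-fold lower than neg and at least 427.6-fold lower than sub, relative to the floor of 3 reads per library. Art3, which overlaps Cxcl10, was at 196.2, 0 and 0 in neg, at 328.7, 207.2 and 0 in sub, and at 0 in all low and high libraries. Art3 and Cxcl10 thus both had their higher means in neg and sub, and reads shared by the pair could not be told apart.

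Cxcl12, the stromal ligand of Cxcr4, shared with Cxcl10 the split of neg and sub from low and high, although its mean was highest in sub and that of Cxcl10 in neg. Its normalised counts were 603.2, 2144 and 2479 in neg and 1665.5, 4608 and 2937.5 in sub, against 113.5, 469.9 and 0 in low and 45.9, 98.0 and 13.1 in high. The 6 neg and sub libraries again all lay above the 6 low and high libraries, with means (± SD, n = 3) of 1742 ± 1000.5 for neg, 3070.4 ± 1476 for sub, 194.5 ± 245.2 for low and 52.3 ± 42.9 for high. None of these differences passed in the limma fit. The mean in high was 58.7-fold below sub (log2 difference −6.13 ± 1.85, adjusted p = 0.146) and 33.3-fold below neg (−5.20 ± 1.85, adjusted p = 0.129). Both of these did pass with edgeR and with DESeq2 on the recovered reads, DESeq2 giving adjusted p of 0.000287 and 0.00207, and with limma at a pseudocount of 5 or without low 3. The mean in low was 15.8-fold below sub (−6.22 ± 1.85, adjusted p = 0.15) and 8.96-fold below neg (−5.29 ± 1.85, adjusted p = 0.126), of which DESeq2 called the first (adjusted p = 0.033). Without low 2 the mean in low was 54.1-fold below sub and 30.7-fold below neg, and without high 2 the mean in high was 104.2-fold below sub and 59.1-fold below neg. The F test gave an adjusted p of 0.0664 with limma and 0.0133 with edgeR. Cxcl12 has no overlapping gene in the annotation and no near copy among the transcripts.

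Across the 12 libraries the log2 levels of Cxcl10 and Cxcl12 correlated with r = 0.927, the highest of the 28 pairs among the members. The points share their libraries and fall into high and low sets by population, so the value includes that split. The marker sums moved with both genes: endothelial and stellate or mesenchymal sums were higher in every neg and sub library than in every low and high library. Between neg and sub, the endothelial sums did not overlap, being lower in sub, whereas the stellate or mesenchymal sums overlapped, as did Cxcl10 and Cxcl12. Of the 10 endothelial genes, 9 fell in low and 9 in high against neg, and of the 10 stellate and mesenchymal genes 6 fell in each. Over all genes, limma called 4.69% in low and 4.69% in high against neg. Cdh5, an endothelial junction protein, was at 8528 to 12116 in neg, 3735 to 5189 in sub, at most 8.16 in low and at most 50.5 in high. The part of these cell types in the Cxcl10 and Cxcl12 levels was not tested. In bulk libraries, fewer cells of a type and less RNA per cell cannot be told apart.

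**Figure D2:**
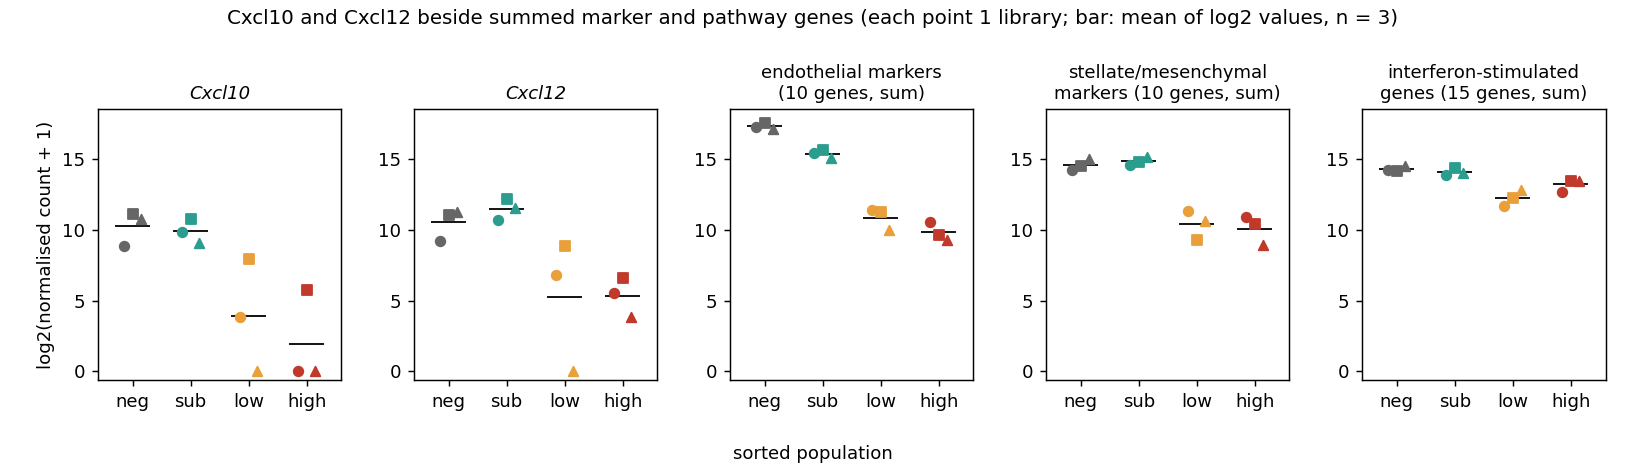
Cxcl10, Cxcl12 and 3 summed gene lists in each library, as log2(normalised count + 1) by population; points are libraries and bars means of the log2 values. Both chemokines and the endothelial and stellate or mesenchymal sums are higher in every neg and sub library than in any low or high library, and the interferon-stimulated sum has its lowest values in low.

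Genes most alike to each chemokine were taken as the 3 with the highest correlation of log2 values over the 12 libraries, among 9607 genes with a mean of at least 100. For Cxcl10 they were Galnt15 (r = 0.977), She (0.972) and Fabp4 (0.962), a fatty acid binding protein known from capillary endothelium. Fabp4 averaged 889.2 ± 256 for neg and 1247 ± 834.8 for sub, against 47.0 ± 81.4 for low and 39.1 ± 67.7 for high (SD, n = 3). For Cxcl12 they were Gsn (0.970), which encodes the actin-severing protein gelsolin, Reln (0.967), which encodes the matrix protein reelin of stellate cells, and Igfbp4 (0.967). These correlations describe shared order over the same libraries, and were not split into parts between and within populations. Those of Cxcl1 were lower, the highest with Ccdc25 (0.904), and for Cxcl5 and Cxcl2 the highest were with Igtp (0.881), an interferon-induced GTPase, and Nit1 (0.865).

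Cxcl1, the widest of the neutrophil ligands, was detected in all 12 libraries. Its normalised counts were 635.6, 63.6 and 621 in neg, 798.9, 1410.5 and 514.7 in sub, 792.6, 4075 and 797.2 in low, against 887.8, 1189.5 and 2190.5 in high. All low and all high libraries lay above all neg libraries (the nearest values were 792.6 in low and 635.6 in neg), while sub overlapped with each of the others. The means (± SD, n = 3) were 440.1 ± 326.1 for neg, 908 ± 457.8 for sub, 1888 ± 1894 for low and 1423 ± 681.9 for high. They stood 4.29-fold higher in low and 3.23-fold higher in high than in neg, but neither difference passed (log2 difference 2.22 ± 1.04, adjusted p = 0.3, and 2.17 ± 1.04, adjusted p = 0.306, limma). Without the low 2 library, whose value was the highest, low stood 1.81-fold above neg (adjusted p = 0.63). Low and high did not differ beyond their spread (−0.05 ± 1.04).

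Cxcl2, a neutrophil ligand encoded next to Cxcl1, had a different distribution. It was at 0 in all 3 sub libraries and at 660.5, 264.2 and 399.4 in low. In neg it was at 427.7, 113.7 and 0, and in high at 2.60, 151.6 and 0. Every low library lay above every sub and every high library, and low overlapped with neg. Against the floor of 3 reads per library, the low mean of 441.4 ± 201.4 was at least 153.3-fold higher than sub (log2 difference 8.69 ± 2.74, adjusted p = 0.184, limma). DESeq2 on the recovered reads called this difference (adjusted p = 0.000745) and edgeR did not (0.409). DESeq2 alone also called sub against neg (0.00369) and high against sub (0.0318), which limma gave as 0.576 and 0.724. The high mean was 8.59-fold below low (−5.66 ± 2.74, adjusted p = 1), and 5.72-fold below it without high 3. That mean rests on high 2, since the other high libraries held 3 and 0 reads of Cxcl2. Without high 2 the high mean was at least 174.9-fold below low, relative to the floor. Cxcl2 shares 90.7% identity over 550 bases with Cxcl3, which was above 0 only in neg 3, at 15.5. Reads of the pair could be split between them in the authors' counting.

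Cxcl5, the epithelial member of the neutrophil ligands, was at 0 in the 3 high libraries. Its counts were 78.8, 541.8 and 262.7 in neg, 17.0, 478.6 and 0 in sub, and 5.94, 710.3 and 116.7 in low. Each neg and low library lay above all high libraries, while neg, sub and low overlapped one another. Relative to the floor, the high mean was at least 109.3-fold lower than neg (log2 difference −7.81 ± 2.68, adjusted p = 0.113, limma) and at least 103.1-fold lower than low (−6.38 ± 2.68, adjusted p = 1). The bound against low dropped to 22.8-fold without low 2, and that against neg to 63.4-fold without neg 2. DESeq2 called both, with adjusted p of 0.000232 and 0.000751, and also high against sub (0.00121), whereas edgeR called none of the 3. Within neg, sub and low alike, the second library held the highest Cxcl5 value.

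For the 3 neighbours on chromosome 5, over the 12 libraries, the correlation of log2 values was −0.093 between Cxcl1 and Cxcl2, −0.165 between Cxcl1 and Cxcl5 and 0.243 between Cxcl2 and Cxcl5. Cxcr2, their receptor, was at 0.691, 672.6 and 315.8 in neg, 278.6, 80.1 and 358.1 in sub, 0 in all low libraries, and 74.4, 244.6 and 0 in high, and none of its differences passed. Cxcr1 was at 0 throughout.

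Cxcl16, a membrane-bound ligand that also takes up oxidised lipoprotein, was present in all 12 libraries. Its counts were 676.4, 146.8 and 826.7 in neg, 1079.7, 878.1 and 45.9 in sub, 2128, 556.5 and 1124 in low, against 973.5, 1645 and 859.2 in high. The high libraries all lay above the neg libraries (the nearest values were 859.2 and 826.7), and all other pairs of populations overlapped. The high mean of 1159 ± 424.8 was 2.11-fold that of neg, 550.0 ± 357.2 (log2 difference 1.35 ± 1.20, adjusted p = 0.62, limma). None of the 6 comparisons of Cxcl16 passed in limma or in any of 22 alternative settings. Zmynd15, which shares 552 bases with Cxcl16 on the opposite strand, had its highest mean in neg, 693.0 ± 312.2, against 128.9 ± 79.0 in sub, 175.0 ± 249.8 in low and 98.1 ± 97.0 in high. Its order over the populations differs from that of Cxcl16.

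Cx3cl1, or fractalkine, the second membrane-tethered member, was at 206.6, 0 and 0 in neg and at 782.7, 159.1 and 97.8 in sub. It was at 366.6, 0 and 35.3 in low and at 317.6, 79.8 and 0 in high. Only in sub was it above the floor in all 3 libraries, and there its mean, 346.5 ± 379, was 5.03-fold that of neg (log2 difference 5.29 ± 2.98, adjusted p = 0.626, limma). That ratio rests on single libraries: it was 1.86 without sub 1, and without neg 1 it was at least 105.5-fold, relative to the floor. The first library held the highest value in each of the 4 populations. No Cx3cl1 comparison passed in any setting tried. The sheddases Adam10 and Adam17, which can release Cxcl16 and Cx3cl1, were listed with Rhbdf1 and Rhbdf2, inactive rhomboid proteins that regulate Adam17. None of the 4 passed in any comparison, where 0% to 4.69% of all genes were called. Adam10 had means of 2425 ± 998.3 in neg and 2529 ± 436 in high, and Adam17 means of 682.6 ± 329.1 and 363.6 ± 368. Cx3cr1, the receptor of fractalkine, was at 135.2 to 534.8 in neg and 1.64 to 69.0 in low, with an adjusted p of 0.343.

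Ccl2, the monocyte ligand, was close to absent. It was at 0 in all neg and high libraries, at 2.21, 112.2 and 0.998 in sub, and at 62.3, 0 and 0 for the low libraries, so that 1 library in each of sub and low held nearly all of its 186 reads. The sub mean was at least 13.4-fold above neg, and the 3 sub values all lay above 0, yet 2 of them rest on 3 reads and 1 read, so that without sub 2 both populations were at the floor. No comparison passed (adjusted p from 0.669 to 1, limma). Its receptor Ccr2 had at most 2.07 normalised counts in any library.

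**Figure D3:**
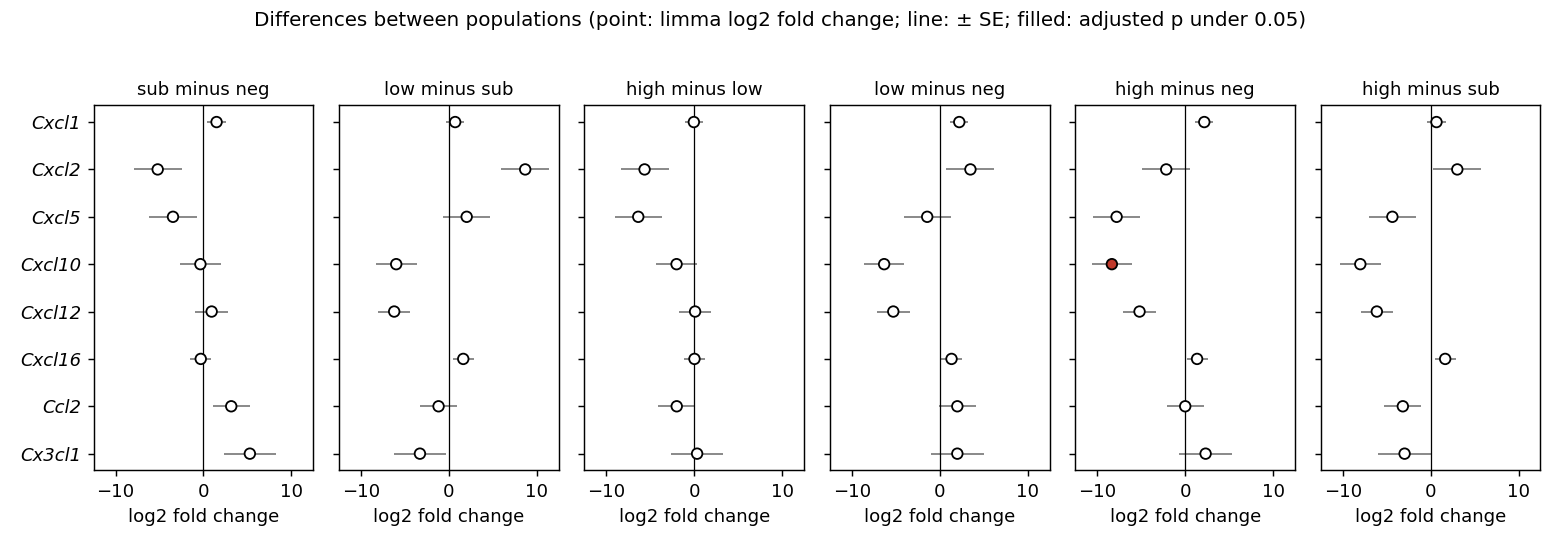
Log2 fold change of each chemokine in the 6 comparisons of populations (x axis; the first-named population minus the second), with lines for ± SE from the limma fit over all 12 libraries; the filled point passed an adjusted p of 0.05. Cxcl10 in high against neg, −8.35 ± 2.31, is the only filled point, and SEs run from 1.04 for Cxcl1 to 2.98 for Cx3cl1.

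The calls among the members were set beside those over all genes. For high against neg, 1 of 8 members was called, beside 4.69% of all genes tested, and 2.25% of all genes were called as lower in high. For low against neg none of the 8 was called, beside 4.69% of all genes. None was called in sub against neg (1.19% of all genes), low against sub (0.744%), high against low (0%, where limma called no gene at all) or high against sub (0.986%). None was called by the F test over the 4 populations (4.23%). At an unadjusted p under 0.05, limma gave 0 members in sub against neg (9.54% of all genes), 3 in low against sub (10.2%), 1 in high against low (4.24%), 3 in low against neg (16%), 3 in high against neg (16.4%) and 2 in high against sub (10.2%), and 4 by the F test (14.9%). DESeq2 called 1 member in sub against neg, where it called 10.5% of all genes, 2 in low against sub (9.88%), 1 in high against low (4.01%) and 0 in low against neg (14.6%). It called 3 in high against neg (14%) and 4 in high against sub (9.21%). With edgeR the only member called was Cxcl12, in high against neg (3.84% of all genes), in high against sub (1.41%) and by the F test (3.79%). In the other comparisons edgeR called no member, beside 1.28% of all genes in sub against neg, 1.11% in low against sub, 0.211% in high against low and 3.73% in low against neg.

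Populations whose libraries did not overlap were counted the same way. This held for 1 of 8 members in sub against neg, where 9.68% of all genes did not overlap, and for 3 in low against sub (11.7% of all genes). It held for 2 in high against low (7.34%), 3 in low against neg (16.9%), 5 in high against neg (18.8%) and 3 in high against sub (13.1%). The member counted in sub against neg was Ccl2, which was also 1 of the 3 in high against sub. Its sub libraries held 3, 98 and 1 reads, against 0 in neg and high, so both separations rest on values at the floor. The members' median log2 difference was 0.32 in sub against neg, −0.23 in low against sub, −1.02 in high against low, 1.67 in low against neg, −1.08 in high against neg and −3.07 in high against sub. Over all genes these medians were 0.00 in the first 4, 0.13 in high against neg and 0.20 in high against sub. When bounds stood in for genes at the floor, the members' median was −1.03 in high against low and −3.40 in high against sub, and the same as the fitted value to the digits given in the other comparisons.

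Several members were near 0 in 1 library and well above 0 in another of the same population. For 6 of the 8, all but Cxcl1 and Cxcl16, at least 1 population held a library at the floor beside one at 100 or more normalised counts. The same held for 77% of all tested genes, and for 84.3% of those with a mean in the members' range. The SE of the members ran from 1.04 to 2.98 on the log2 scale, with a median of 2.35 over all genes.

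Levels of the members were compared with one another only per length, as normalised counts per kb of merged exons. Merged exons pool all annotated isoforms. They span the whole gene for Cxcl1 (1875 bases), Cxcl2 (2068) and Cxcl10 (2252), and reach 8176 bases for Cxcl12. The order and shares depend on these lengths. Before scaling, the mean count of Cxcl12 was above that of Cxcl10 in neg (1742 against 1476.5) and in sub (3070.4 against 1079). In neg, Cxcl10 was the most abundant member at 655.7 ± 398.9 per kb, and held 42.3% of the members' sum. That order did not hold in neg 1, where Cxcl1 (339.0 per kb) and Cxcl16 (223.9 per kb) stood above Cxcl10 (208.3 per kb), while in neg 2 and neg 3 Cxcl10 was the highest, at 974.2 and 784.4 per kb. In sub, Cxcl1 (484.3 ± 244.2), Cxcl10 (479.1 ± 277) and Cxcl12 (375.5 ± 180.5) did not differ beyond their spread and held 27.4%, 27.1% and 21.2%. In low, Cxcl1 (1007 ± 1010.0) and Cxcl16 (420.2 ± 263.4) held 52.9% and 22.1%. The order in low rests on low 2: without that library Cxcl1 stood at 424 per kb (31.6% of the sum) and Cxcl16 at 538.2 per kb (40.2%). In high they held 62.4% and 31.6%. Cxcl10 stood at 0.628% of the sum in high and Cxcl12 at 0.527%. These shares come from means over 3 libraries and were not tested.

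**Figure D4:**
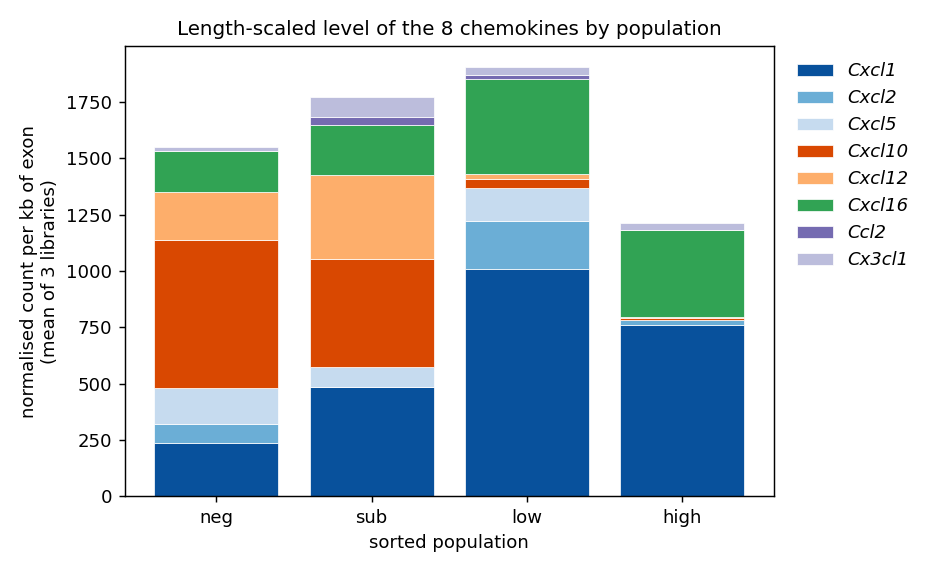
Normalised counts per kb of merged exons for the 8 chemokines, stacked, as means of the 3 libraries of each sorted population. The sizes of the segments depend on these merged lengths. Cxcl10 is the largest segment in neg (though not within neg 1), and Cxcl1 and Cxcl16 make up most of the column in low and high; without low 2, Cxcl16 exceeds Cxcl1 in low.

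The remaining chemokine system was sparse. Of 30 other ligands, 20 were at 0 in all 12 libraries, among them Ccl3, Ccl4, Ccl5, Ccl20 and Cxcl13, and 6 passed the filter on low values. Ccl21a, a ligand of Ccr7 made by lymphatic endothelium, was the only one called. Its calls were in low against sub (0.744% of all genes), high against sub (0.986%) and the F test (4.23%). It was at 1461, 959.4 and 2477 in sub and at 37.3, 1340.4 and 283 in neg, and at 0 in all low and high libraries. Relative to the floor it was at least 676.3-fold lower in low and at least 606.2-fold lower in high than in sub (adjusted p = 0.0397 and 0.0346, limma), with all 3 libraries of each below all of sub. These calls were held in 12 and 14 of 22 alternative settings. Both were lost with the replicate block, in fits of only the populations compared, and on leaving out any sub library. Ccl21a has near-identical copies in the mouse genome, one of which, Gm13304, was at 314.3 in neg 2 and 493.7 in sub 3, so the split of reads between them is uncertain. Cxcl9, like Cxcl10 a ligand of Cxcr3, was at 226.2, 174 and 229.4 in the sub libraries and at 525.8, 3.67 and 0.966 in neg, and no low or high library held a read of it (adjusted p = 0.179 for low against sub).

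Of 22 receptors, 10 were at 0 in all libraries, including Cxcr3 and Cxcr6, the receptors of Cxcl10 and Cxcl16. A further 7 passed the filter and none was called in any comparison, where 0% to 4.69% of all genes were called. Cxcr4 was above 0 only in neg 1, at 71.9, and Ackr3, the second receptor of Cxcl12, was at 820.8 in neg 1, at 70.5 and 36.2 in low 1 and low 3, and at 0 elsewhere.

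**Figure D5:**
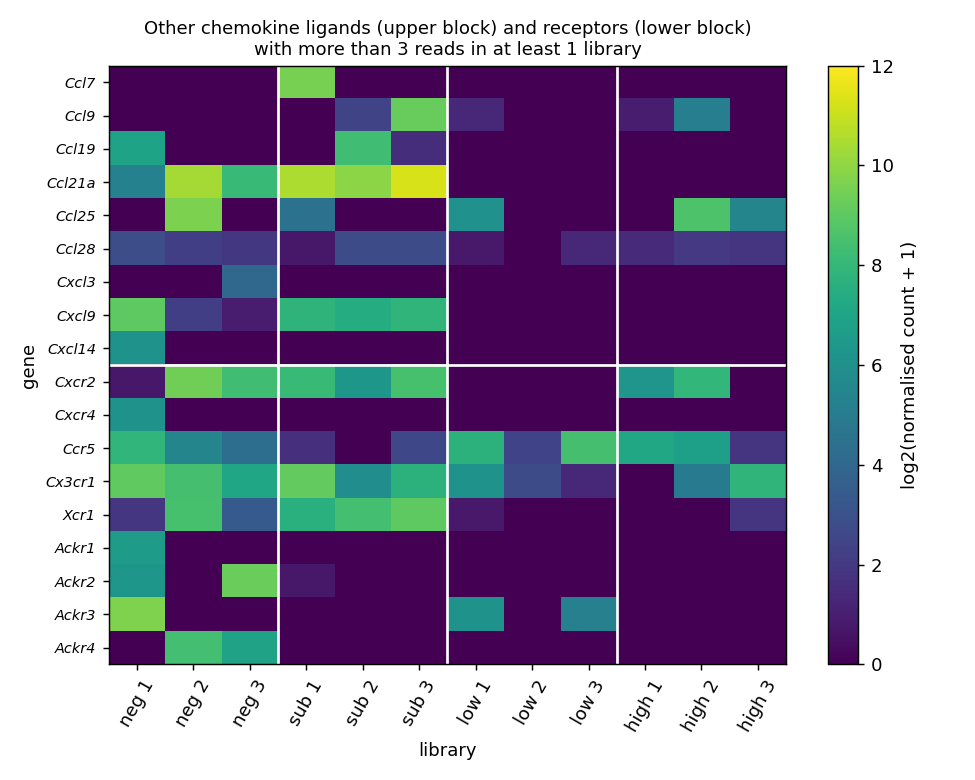
Log2(normalised count + 1) of the 9 other chemokine ligands and 9 receptors that had more than 3 reads in at least 1 library, in each of the 12 libraries. Ccl21a and Cxcl9 are above 0 in all neg and sub libraries and at 0 in low and high, though Cxcl9 held only 3 reads in neg 2 and 1 read in neg 3. Most receptors are near 0 in several libraries of each population.

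The genes that control these ligands were described from lists. Of 20 genes of the NF-kB pathway and its targets, 19 were tested. Against neg, 2 rose in low, and 2 rose and 1 fell in high, where limma called 4.69% of all genes in each. No call was made in the other pairs of populations, where 0% to 1.19% of all genes were called, and the F test called 1 (4.23% of all genes). Lcn2, which encodes the siderophore-binding protein lipocalin, was at 0 in all neg libraries, at 1663, 2406 and 408.5 in low and at 951.9, 367.9 and 857.6 in high. Relative to the floor in neg, Lcn2 stood at least 518.3-fold higher in low, and for high the bound was 252-fold (adjusted p = 0.00666 and 0.0114, limma, all 3 libraries of each above neg). Rela, a subunit of NF-kB, rose in low against neg (adjusted p = 0.0433, called in 5 of 22 alternatives). Nfkbiz, an inducible cofactor of NF-kB, rose in high against neg by 1.17 ± 0.30 on the log2 scale (adjusted p = 0.0259, called in 13 of 22 alternatives, up to 0.589 without the variance trend). Csf1, the macrophage growth factor, fell in high against neg (adjusted p = 0.0499, called in 7 of 22 alternatives). The median log2 difference of the list was 0.26 in low and 0.27 in high against neg, beside 0.00 and 0.13 over all genes. Receptors of inflammatory signals gave 0 of 13 calls in every comparison, where 0% to 4.69% of all genes were called.

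Of 15 interferon-stimulated genes, 3 fell in low against neg (4.69% of all genes called) and 2 in low against sub (0.744%). None was called in high against neg (4.69%) or high against sub (0.986%). Irf1, an interferon-induced transcription factor, was at 6468 to 9454 for neg, 6116 to 10690.0 for sub, 1156 to 3131 for low and 2655 to 7327 for high. It fell by 2.06 ± 0.41 in low against neg and by 2.09 ± 0.41 in low against sub on the log2 scale (adjusted p = 0.00521 and 0.0243, limma). These were called in 21 and 15 of 22 alternatives, with adjusted p up to 0.336 and 0.501, both without the variance trend. The call against sub was lost on leaving out sub 2 (0.13), sub 3 (0.0992), low 1 (0.0761) or low 2 (0.0874). Ifit1, an antiviral RNA-binding protein, fell by 3.59 ± 0.84 and by 3.67 ± 0.84 (adjusted p = 0.0159 and 0.0472, limma, the latter called in 6 of 22 alternatives). Its call against sub was lost with the replicate block and with edgeR, and held with DESeq2. Rsad2, or viperin, was at 742 to 1255 in neg and at 0 in low, a difference of at least 439.1-fold (adjusted p = 0.0171). Cxcl10 had its lowest mean in high, while the mean summed level of these genes was lowest in low, with libraries at 3223 to 7193 against 6623 to 11280.0 in high. No member of the list or Cxcl10 passed a test between low and high, where limma called no gene at all. The list's median was −2.50 in low and −1.43 in high against neg, beside 0.00 and 0.13 over all genes.

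Of 10 immediate early genes, which dissociation of tissue is known to induce, 7 were called in at least 1 comparison. The summed level of the list was 85480 to 99835 for neg, 143780 to 177414 for sub, 211527 to 235743 for low and 230575 to 251760 for high. Of these genes, 4 rose in sub, 6 in low and 7 in high against neg, where limma called 1.19%, 4.69% and 4.69% of all genes. Atf3, a stress-induced factor, was up by 3.86 ± 0.20 on the log2 scale in high against neg (adjusted p = 3.32e-10, limma). Junb, Ier3 and Dusp1 were called in no comparison, and Ier3 and Dusp1 had lower means in high (407.4 ± 280.8 and 3552 ± 1237) than in neg (793.9 ± 107.4 and 6176 ± 3315). None of the 10 was called in high against low, where limma called no gene at all. The part of dissociation in the Cxcl1 and Cxcl2 levels was not tested.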

How the data were processed

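The values were normalised counts, a signal for each gene symbol in each library, in a single table deposited by the authors for 4 populations of 3 libraries each. Salmon, DESeq2 1.26.0 and the build mm10 are named in the submitters' processing notes, with no role or order. Per the labels' protocols, a stranded, random-primed total RNA kit for small inputs (SMARTer Pico v2) was used. Alignment settings, annotation and the use of strand are not given in the sources used here.

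In each of the 12 columns 100% of values were whole multiples (within 0.01) of the smallest value of that column, so read counts could be recovered for the count tests and for the floor of 3 reads. Floors and read counts cover counting error only, since no molecular identifiers are mentioned. Genes averaging 10 normalised counts or more were fitted with limma 3.58.1 in R 4.3.3 (eBayes, trend on) on log2(normalised count + 1), over the 12 libraries together and with no term besides population. The 6 pairwise contrasts and a moderated F test were two-sided with Benjamini-Hochberg adjustment over all genes at 0.05. On this scale the pseudocount draws low values together, while single libraries at 0 can widen a fitted difference beyond the ratio of means. A fitted value against libraries at 0 depends on the pseudocount, so folds against a population at the floor are lower bounds from 3 reads in each library.

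Alternatives comprised other pseudocounts (0.5 and 5), no filter or one at a mean of 100, equal totals, the replicate block, no variance trend, fits of only the 2 populations compared (without genes at 0 in both), edgeR 4.0.16 (quasi-likelihood) and DESeq2 1.42.0 on the recovered reads, and each library left out with the filter applied again. Levels per kb in low without low 2 were added after seeing the data. The count tests called, in the order sub against neg, low against sub, high against low, low against neg, high against neg and high against sub, 207, 179, 34, 602, 619 and 227 genes with edgeR and 1698, 1593, 646, 2352, 2257 and 1485 with DESeq2. The 8 members and all lists were chosen with earlier results of these data known. The text names the members, the 3 genes most like Cxcl10 and Cxcl12, and the gene most like each of Cxcl1, Cxcl2 and Cxcl5. From the lists it names some of the genes called, and some of the ligands and receptors that passed the filter. Cxcr4, Ccr2, Cxcr1, Cxcl3, the other genes at 0 and the marker genes given by level were named after their values were seen. Promoter sequences came from a RefSeq table and coordinates from GENCODE.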

Additional observations from a re-analysis of the deposited data

How the results depend on the processing

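No called value of a member changed direction in any setting. Member log2 differences kept their direction and their side of the threshold in 985 of the alternative values; 14 lost the call, all of them Cxcl10 in high against neg, 16 gained one, and 28 values without a call changed sign. For high against neg, 1 member was called and the number was 0 with a pseudocount of 0.5, without a filter, without the variance trend and with only 2 populations, 2 with a pseudocount of 5, 3 with DESeq2, and from 0 to 2 with a library left out. For the other comparisons, in which none was called, DESeq2 called 1 in sub against neg, 2 in low against sub, 1 in high against low and 4 in high against sub. A pseudocount of 5, edgeR and leaving out low 3 each called 1 in high against sub (0 to 1 over the libraries left out). The F test called 2 with a pseudocount of 5, 1 with edgeR, 1 with DESeq2 and from 0 to 2 with a library left out. The cause of these shifts was not tested.

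With the replicate block the F test called 1 member, Cxcl10. Replicate numbers were not taken as pairs, since deviations of same-numbered libraries correlated at −0.016 to 0.027 over 18 pairs, under the 0.1 required; 8 of 12 libraries were closest to one of their own number, a hint of sharing from the data and not from the design. Over all genes, the block gave 180, 83, 1, 720, 715 and 130 calls in the order sub against neg, low against sub, high against low, low against neg, high against neg and high against sub, beside 192, 120, 0, 757, 757 and 159 without it. Fits of 2 populations gave 38, 39, 6 and 302 in the first 4 and 64 in high against sub. Without the variance trend, low against sub had 195 and high against low 22, and without the filter high against low had 1. Low against sub had 10 calls without sub 2 and 40 to 73 without neg 1, 2 or 3, sub 1 or 3, or low 2 or 3. High against sub had 46 without sub 2 and 62 to 99 without neg 1, sub 1 or 3, or any high library. Low against neg had 474 and 445 without low 2 and low 3, high against neg 424 to 433 without any 1 high library, and high against low 4 without high 1 and 1 without high 2. With 3 libraries per population and SEs of 1.04 to 2.98, differences of several log2 units in single members did not pass in the limma fit, though edgeR or DESeq2 called some of them. Ccl2 did not enter every alternative, since it fell under the filter in some.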
